A study of Caenorhabditis elegans with 2 samples.

Results

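Histones are the proteins around which DNA is wound, and the genes that encode them are described here for the binding of SDC-2 in embryos of the nematode Caenorhabditis elegans. The genes were chosen by name: every protein-coding gene of the Ensembl annotation of the WBcel235 genome (the build also called ce11) that is named his- and a number, 72 of the 19973 protein-coding genes on the nuclear chromosomes. The study mapped SDC-2 with ChIP-seq, the sequencing of DNA that is immunoprecipitated with a protein, using an antibody against GFP in worms of strain OP92, which stably express SDC-2 with a C-terminal GFP-FLAG tag. Whole hermaphrodites were collected as late embryos, 3.25 hours after egg bleaching had synchronized them, in 1 group of 2 biological replicates, and the chromatin was sonicated. All samples carry the tag, and neither an untagged strain nor the control reads were analysed here, so the values describe 1 genotype at 1 stage in a mixture of all cells of the embryo. The peak lists hold no read counts, and the depth is therefore unknown.

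SDC-2 is a protein of hermaphrodite embryos that brings the dosage compensation complex to the X chromosomes, where transcription is then lowered. Histones H2A, H2B, H3 and H4 form the core of the nucleosome, and the linker histone H1 binds the DNA between nucleosomes. In animals the core histones needed during DNA replication are encoded by many near-identical, intronless gene copies in clusters, often as head-to-head pairs whose 5′ ends face each other across a short spacer. H3.3 is a variant of H3 that is put into chromatin outside replication as well, and its genes usually lie alone. By the RefSeq product names, the 72 genes comprised 17 for H2A, 16 for H2B, 15 for H3, 5 for H3.3 or H3.3-like proteins, 16 for H4, 1 for H1 (his-24) and 2 for partial histone-domain proteins (his-39 and his-73). Histone genes separated from the next by a gap of at most 20000 bp formed 13 clusters with 67 genes, and 5 genes stood alone.

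Of the 72 genes, 62 formed 31 head-to-head pairs, 16 of H2A with H2B, 14 of H3 with H4 and 1 of H2A with H4. The spacer between both 5′ ends was 227 to 368 bp long, with a median of 258 bp. For 66 of the 72 genes the annotated 5′ end was the start codon, so these distances run between coding sequences in most pairs. Of the 6 strongest distinct SDC-2 summits at histone genes 4 lay in these spacers, beside 10 of all 33 in the list called on both replicates pooled. In the following, 5 spacers with a summit are shown first, read from the plus strand of WBcel235. The his-60/his-59 spacer is IV:7487993-7488248 with its summit at base 72, and for his-61/his-62 and his-31/his-32 the 300 bases around the middle of the spacer are shown (IV:7486231-7486530, summit at base 198, and IV:8333994-8334293, summit at base 176). The his-2/his-1 spacer is V:16042284-16042519 with its summit at base 38, and that of his-38/his-40 is X:7309876-7310109 with its summit at base 111. Capitals mark 8-base words that at least 12 of the 21 distinct spacer sequences share on either strand.
his-60/his-59: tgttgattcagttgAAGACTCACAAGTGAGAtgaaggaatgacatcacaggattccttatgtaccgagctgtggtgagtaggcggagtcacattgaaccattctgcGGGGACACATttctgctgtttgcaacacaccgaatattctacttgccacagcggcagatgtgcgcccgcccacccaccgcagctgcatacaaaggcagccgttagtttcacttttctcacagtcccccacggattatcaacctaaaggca
his-61/his-62: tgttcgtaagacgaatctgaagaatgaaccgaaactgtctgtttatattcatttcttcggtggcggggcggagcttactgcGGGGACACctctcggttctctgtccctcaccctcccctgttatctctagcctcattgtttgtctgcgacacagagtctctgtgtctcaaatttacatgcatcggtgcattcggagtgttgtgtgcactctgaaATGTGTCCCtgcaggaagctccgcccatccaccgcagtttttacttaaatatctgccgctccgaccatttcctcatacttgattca
his-31/his-32: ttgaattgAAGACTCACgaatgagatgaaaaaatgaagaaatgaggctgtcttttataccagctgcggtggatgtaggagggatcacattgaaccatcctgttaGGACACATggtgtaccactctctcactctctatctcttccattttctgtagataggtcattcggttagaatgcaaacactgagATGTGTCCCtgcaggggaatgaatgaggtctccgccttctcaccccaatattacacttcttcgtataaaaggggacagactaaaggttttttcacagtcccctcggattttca
his-2/his-1: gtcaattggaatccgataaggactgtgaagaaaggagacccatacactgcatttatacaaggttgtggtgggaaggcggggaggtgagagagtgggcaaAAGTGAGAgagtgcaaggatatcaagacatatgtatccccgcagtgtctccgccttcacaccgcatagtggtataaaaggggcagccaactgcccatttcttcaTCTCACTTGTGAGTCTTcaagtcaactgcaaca
his-38/his-40: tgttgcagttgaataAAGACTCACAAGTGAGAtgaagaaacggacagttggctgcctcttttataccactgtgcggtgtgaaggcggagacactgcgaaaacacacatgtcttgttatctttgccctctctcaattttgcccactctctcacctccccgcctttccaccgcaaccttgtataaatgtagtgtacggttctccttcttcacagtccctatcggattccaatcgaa

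Spacers without a summit are shown for comparison, because they carry the same words but exist in several identical copies. The his-50/his-49 spacer (V:8847705-8847942) is identical in 2 pairs and the his-14/his-13 spacer (II:13819938-13820209) in 3 pairs. The 142 bases upstream of the linker histone gene his-24 (X:14489952-14490093, summit at base 101) are shown as the case of a lone gene with a strong summit. All 3 are read from the plus strand.
his-50/his-49: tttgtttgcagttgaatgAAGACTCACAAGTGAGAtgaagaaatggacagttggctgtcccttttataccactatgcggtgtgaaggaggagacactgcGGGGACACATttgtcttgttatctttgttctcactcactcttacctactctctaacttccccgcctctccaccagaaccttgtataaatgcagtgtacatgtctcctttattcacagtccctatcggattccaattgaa
his-14/his-13: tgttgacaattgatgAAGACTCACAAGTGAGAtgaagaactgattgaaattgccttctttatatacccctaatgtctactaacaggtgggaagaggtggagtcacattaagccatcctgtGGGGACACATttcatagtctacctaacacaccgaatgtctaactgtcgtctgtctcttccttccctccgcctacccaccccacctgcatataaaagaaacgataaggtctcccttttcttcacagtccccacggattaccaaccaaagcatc
his-24: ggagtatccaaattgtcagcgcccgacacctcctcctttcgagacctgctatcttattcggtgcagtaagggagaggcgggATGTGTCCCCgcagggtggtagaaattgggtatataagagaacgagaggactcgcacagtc

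The 6 shared words fell into 3 stretches. GGGGACAC, GGGACACA and ATGTGTCC overlap one another on opposite strands, AAGACTCA and AGACTCAC overlap each other, and AAGTGAGA overlapped none of these but directly followed AGACTCAC in several spacers, his-60/his-59 and his-50/his-49 among them. In the window from 250 bases before to 50 bases after each 5′ end, GGGGACAC was found in 44 of the 72 histone genes (61.1%) and in 107 of all 19973 genes (0.536%), searched on both strands. AAGTGAGA was found in 37 histone genes (51.4%) and 2.66% of all genes, and AGACTCAC in 25 (34.7%) and 0.436%. The words were picked from these spacers, so their frequency there describes the choice. They did not separate spacers with a summit: of the 10 distinct spacers with a summit in the pooled list, 5 to 7 carried each word, and the spacers above without a summit carry words of all 3 stretches.

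The authors deposited a list of peaks and background for each replicate, a list called on both replicates pooled, and a list of the peaks that passed the irreproducible discovery rate (IDR), a measure of agreement between replicates. These held 25174 and 24434 peaks on the nuclear chromosomes for replicates 1 and 2, 26639 in the pooled list and 1343 in the IDR list. Each peak has a summit, its highest point, and a signal from the authors' peak caller, which is the authors' value and has a scale of its own in each list, so that ranks are given within a list. Of the 72 histone genes, 9 (12.5%) had a 5′ end at most 1000 bp from an IDR summit, beside 4.64% of all protein-coding genes. On the autosomes there were 8 of 68 histone genes beside 3.6% of all genes, and on X there was 1 of 4 histone genes beside 11.2%. In the pooled list, which holds weak peaks too, 31 histone genes (43.1%) had a summit, beside 46.1% of all genes. A summit found in both replicate lists within 100 bp was present at 24 histone genes (33.3%), beside 19.8%. Counted by gene, the histone genes were thus above all genes for IDR and replicated summits and close to them in the pooled list. Head-to-head genes can share 1 summit, so the genes are not independent counts.

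**Figure D1:**
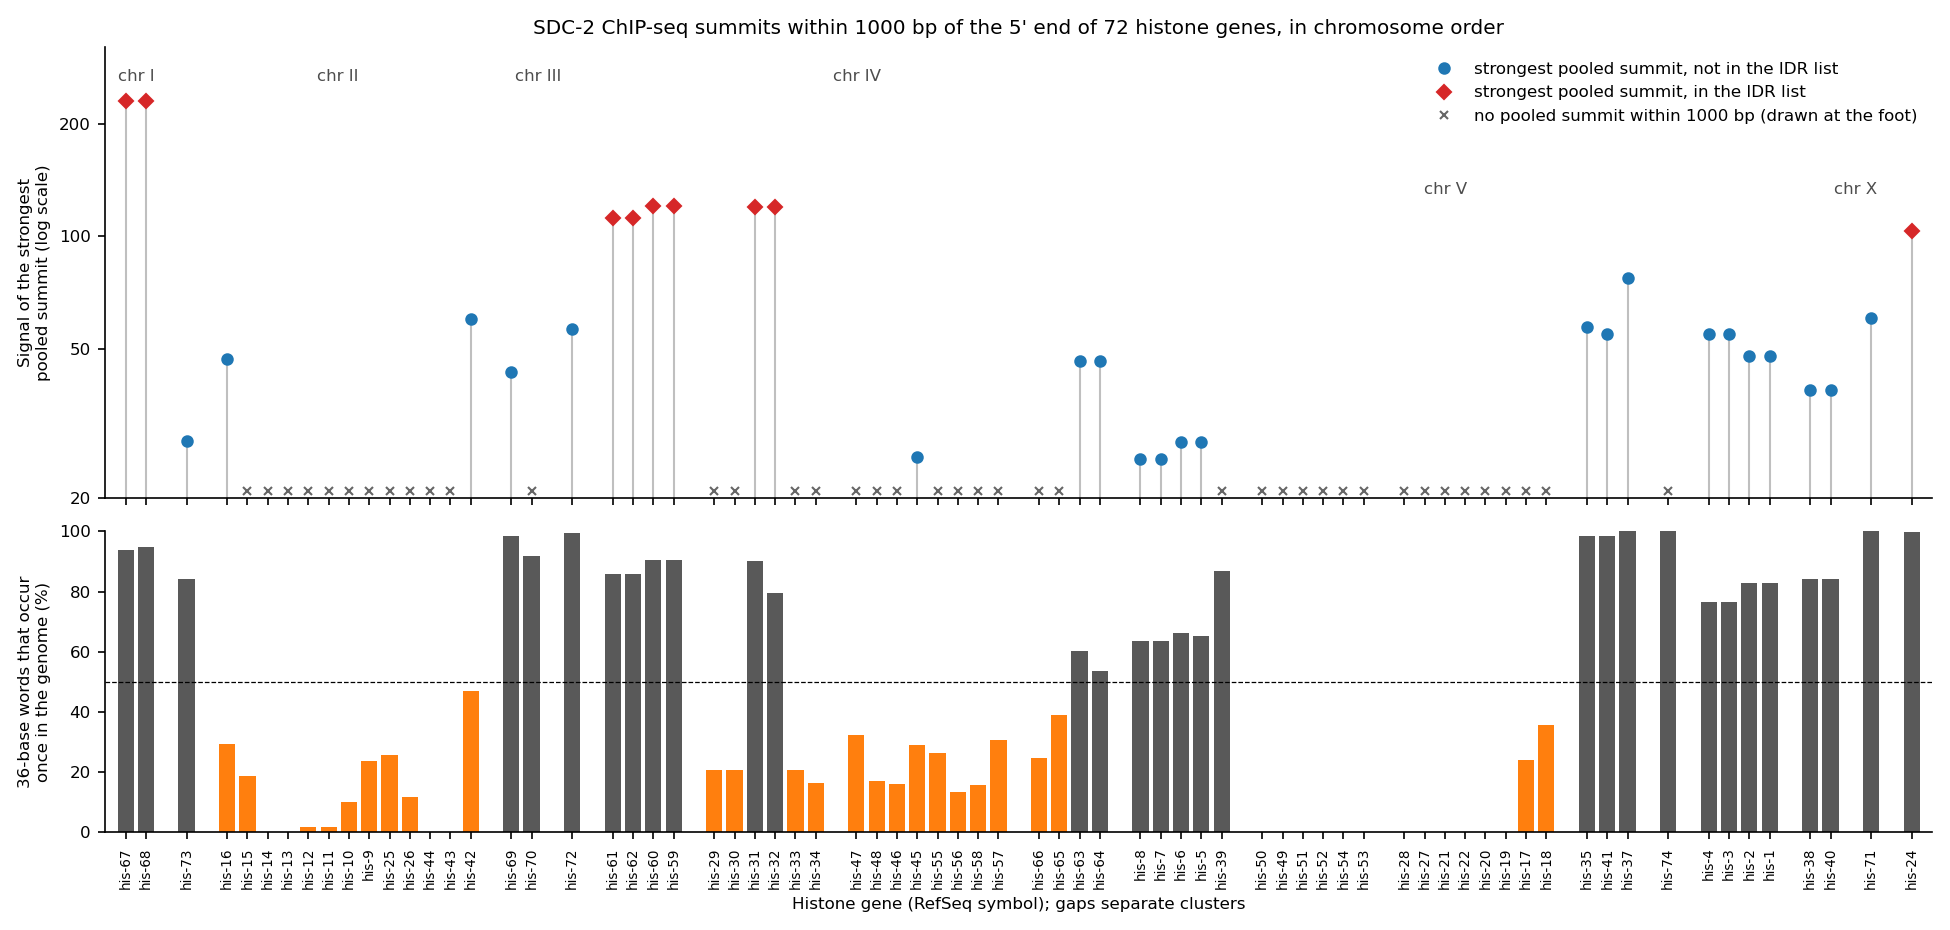
Upper panel, signal of the strongest pooled summit within 1000 bp of the 5′ end of each of the 72 histone genes (log scale), with IDR summits as diamonds and genes without a summit as crosses at the foot; lower panel, percent of 36-base words within 1000 bp that occur once in the genome. The 9 genes with an IDR summit lie between 103.4 and 229.9, and most crosses stand over low bars.

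Because head-to-head genes share a spacer, the 9 genes with an IDR summit rested on 6 distinct summits, of which 5 were shared by a pair. All 6 were found in both replicates within 100 bp. The IDR list is chosen for agreement between replicates, so this describes the choice. Of the 6 summits, 4 lay between the 5′ ends of a pair, 1 upstream of his-24 and 1 inside his-32. Their pooled signal had a median of 115.9, beside 109.5 for all 781 IDR summits that lay as close to any protein-coding gene, 104.2 for those on autosomes and 127.3 for those on X. The histone summits were thus of ordinary height among IDR summits near genes, apart from the strongest one.

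The strongest summit lay between his-67, which encodes H4, and his-68, which encodes H2A, the only pair of that composition, on chromosome I at 9989021. Its signal was 229.9 in the pooled list, where it ranked 193rd of 26639, 108.8 in replicate 1 (rank 197) and 123.0 in replicate 2 (rank 185). The summit lay 258 bp upstream of his-67 and 111 bp upstream of his-68. Both replicates placed it at nearly the same rank, well above the next histone summit. The nearest 5′ end of any other gene, that of alg-5, was 781 bp away.

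A cluster of 4 genes on chromosome IV, his-61 to his-59 within 2826 bp, carried an IDR summit in each of its spacers, and it was the largest cluster in which every gene had one. At his-60 (H4) and his-59 (H3) the summit at IV:7488064 had a signal of 120.5 in the pooled list (rank 564), 62.5 in replicate 1 (rank 510) and 57.2 in replicate 2 (rank 798). At his-61 (H2A) and his-62 (H2B) the summit at IV:7486428 had a signal of 112.2 in the pooled list (rank 664), 58.4 in replicate 1 (rank 607) and 52.7 in replicate 2 (rank 962). The 2 summits were close in signal in every list, and replicate 1 ranked both higher than replicate 2 did.

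The remaining pair on chromosome IV with an IDR summit, his-31 (H4) and his-32 (H3), was the only histone pair with 2 of them. Their peaks, IV:8333944-8334393 and IV:8334176-8334625, overlap, so the 2 summits do not mark separate intervals. The summit in the spacer, IV:8334169, had a signal of 119.5 in the pooled list (rank 580), 55.6 in replicate 1 (rank 668) and 73.7 in replicate 2 (rank 448). The other, IV:8334401, lay inside the his-32 gene, 96 bp past its 5′ end, with a signal of 100.7 (rank 847), 39.8 in replicate 1 (rank 1491) and 63.2 in replicate 2 (rank 634). Here replicate 2 ranked both summits higher than replicate 1 did, the reverse of the his-61 to his-59 cluster. The neighbours his-29, his-30, his-33 and his-34, which belong to the same cluster of 6 genes, had no summit in the pooled list.

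His-24, the linker histone gene, was the histone gene on X with an IDR summit. The summit at X:14490052 lay 42 bp upstream of its 5′ end, with a signal of 103.4 in the pooled list (rank 798), 57.4 in replicate 1 (rank 633) and 49.3 in replicate 2 (rank 1108). The signal was below the median of 127.3 for IDR summits near genes on X. A second, weaker pooled summit inside the gene had a signal of 40.8 and was found in both replicates. The 5′ end of the non-coding RNA gene M163.19 lay 96 bp from the stronger summit, so the summit is near the 5′ ends of both genes.

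**Figure D2:**
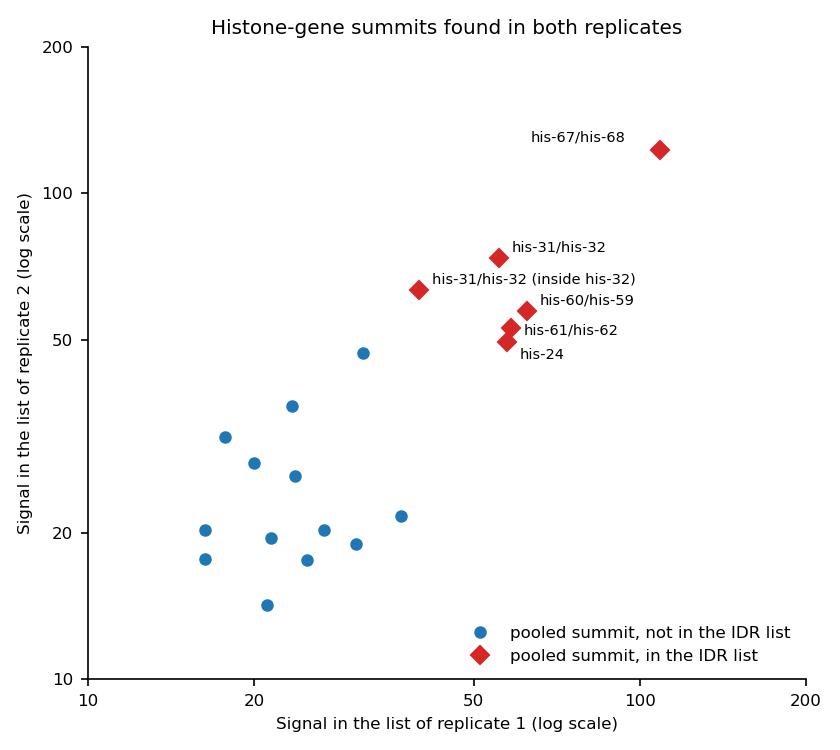
Signal of the 19 pooled histone-gene summits that were found within 100 bp in both replicates, replicate 1 on the horizontal and replicate 2 on the vertical axis (both log scales, and each list has a signal scale of its own). The 6 IDR summits (diamonds) have the highest signal in both replicates, from 39.8 to 108.8 in replicate 1 and from 49.3 to 123.0 in replicate 2. The IDR list was selected on these same replicates, so their place in the plot is no separate evidence.

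The pooled list placed 33 distinct summits near histone genes, the 6 IDR summits included, with signals from 24.2 to 229.9 and a median of 47.2, beside 33.1 for all pooled summits near protein-coding genes. In the replicate lists the medians were 23.4 for histone summits and 18.6 for all in replicate 1, and 23.9 and 20.1 in replicate 2. Of the 33, 10 lay between the 5′ ends of a pair, 14 inside a histone gene, 5 elsewhere upstream and 4 downstream, and 19 were found in both replicates within 100 bp. The strongest outside the IDR list belonged to his-37, a gene for H4 on chromosome V. It lay 76 bp upstream, with a signal of 77.5 in the pooled list (rank 1557), 31.5 in replicate 1 and 47.0 in replicate 2, just under the lowest IDR signal of 82.4.

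His-37 shares a cluster on chromosome V with the pair his-35 (H2A) and his-41 (H2B), at which 4 pooled summits lay. The strongest, with a signal of 57.2, lay downstream of his-35 and 201 bp from the 5′ end of mdf-1, and the next, at 54.8, lay inside his-35. The summit in the spacer was the weakest of the 4, at 32.9, and neither replicate had one in the spacer. The summit inside his-41 had a signal of 49.02 and was found in both replicates. This pair therefore differed from the IDR pairs in that its stronger summits lay outside the spacer.

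Of the 5 H3.3 genes none had an IDR summit and 3 had a summit in the pooled list, beside 4.64% and 46.1% of all genes, so that with 5 genes neither count stands out from the background. The his-72 gene on chromosome III has 2 annotated 5′ ends. Its summits of 56.53 (rank 3464) and 56.52 (rank 3465) lay inside the gene, as did a weaker one of 34.6. That of 56.52 lay 14 bp past the outer 5′ end. Its signals were 36.9 in replicate 1, 68 bp past that end, and 21.6 in replicate 2, 43 bp upstream. That of 56.53 lay 337 bp past the inner 5′ end, with 35.9 in replicate 2 and no summit within 100 bp in replicate 1. At his-71 on X the stronger summit lay 619 bp upstream, with a signal of 60.7 in the pooled list (rank 2879), 23.4 in replicate 1 and 36.4 in replicate 2. At his-69 the signal was 43.6 in the pooled list (rank 6833), 24.9 in replicate 1 and 17.6 in replicate 2, with the summit inside the gene. The H3.3-like genes his-70 and his-74 had no pooled summit. His-70 had a weak summit of 14.6 in replicate 2, and the strongest summits at his-74 had signals of 17.8 in replicate 1 and 21.5 in replicate 2, 704 and 544 bp downstream of its 5′ end, the first past the 3′ end of the gene and the second inside it. Of the 7 pooled summits at H3.3 genes 1 thus lay upstream of the 5′ end. Upstream summits numbered 5 of 10 for H2A genes, 6 of 7 for H2B, 8 of 12 for H3 and 11 of 12 for H4. A summit shared by a pair is counted under both types, and the 7 at H3.3 genes come from 3 genes. The upstream share over all protein-coding genes was not counted, so these counts cannot be read as a trait of a type. A summit upstream of a gene can lie inside its neighbour or past it.

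On X, where 11.2% of genes had an IDR summit, the other histone genes were the pair his-38 (H4) and his-40 (H3), and his-71. The summit in the his-38/his-40 spacer had a signal of 38.9 in the pooled list (rank 8978), 21.5 in replicate 1 and 19.6 in replicate 2. All 4 histone genes on X thus had a pooled summit that both replicates held, with 1 summit shared by his-38 and his-40. The matching share of all genes on X was not counted. Over all chromosomes, 46.1% of genes had a pooled summit and 19.8% had one in both replicates. The autosomal pairs his-4/his-3 and his-2/his-1 on chromosome V had spacer summits of 54.8 and 48.1, above that of the X pair, and his-35/his-41 and his-6/his-5 on the same chromosome had 32.9 and 28.4, below it.

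The position within the spacer was measured for the pairs. A pooled summit lay in 10 of 31 spacers and an IDR summit in 4. By type, the 10 were in 6 of 14 H3 and H4 pairs, 3 of 16 H2A and H2B pairs and the his-67/his-68 pair. Spacers in which under 50% of 36-base words occur once in the genome held none, and they were more common among H2A and H2B pairs. The spacer summits of his-35/his-41, his-4/his-3 and his-6/his-5 were not found in both replicates within 100 bp. The pooled summits were 6.5 to 80.5 bp from the midpoint of the spacer, with a median of 43.25 bp, and lay on either side of it. At his-60/his-59 all 3 lists placed the summit within 1 bp, 55.5 or 56.5 bp from the midpoint on the side of his-60. At his-31/his-32 replicate 1 placed it 54 bp towards his-31 and replicate 2 32 bp towards his-32. Thus the side of the spacer was the same in both replicates at some pairs and not at others.

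**Figure D3:**
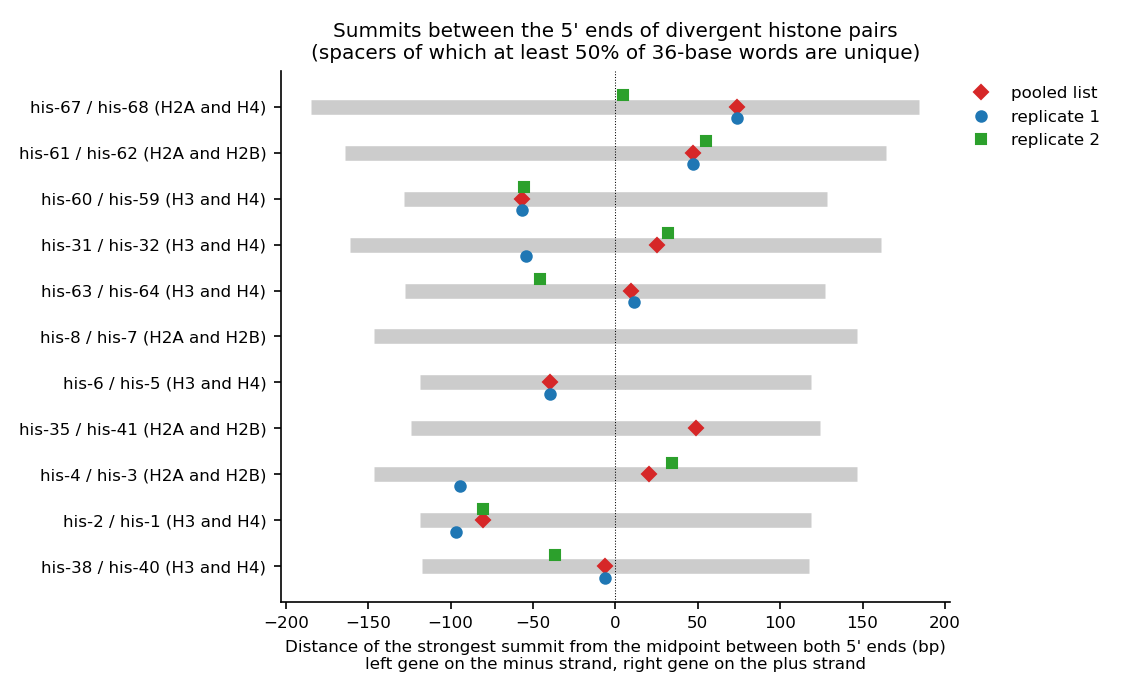
Distance in bp of the strongest summit from the midpoint of the spacer for the 11 head-to-head pairs whose spacer words are at least 50% unique, in the pooled list (diamonds), replicate 1 (circles) and replicate 2 (squares), with the spacer as a grey bar. In 10 of the 11 pairs a pooled summit lies in the spacer, and his-8/his-7 has none in any list.

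The histone genes without a summit fell mostly in clusters that are repeated in the genome. Copies of a sequence cannot be told apart by short reads, so the percent of 36-base words within 1000 bp of the 5′ end that occur once in the genome was computed for each gene. The median was 30.0% over the histone genes and 100% over all protein-coding genes, of which 2.44% were under 50%. Of the 31 histone genes with at least 50% unique words, 9 (29.0%) had an IDR summit, beside 4.75% of all such genes. A pooled summit was present at 28 (90.3%), beside 47.1%. The 9 and 28 genes rested on 6 and 30 distinct summits, because paired genes can share a summit. Of the 41 histone genes under 50%, 0 had an IDR summit, beside 0.205% of all such genes, and 3 (7.32%) had a pooled summit, beside 5.94%. The 3 were his-16, his-42 and his-45, with summits 819 bp downstream, 842 bp upstream and 956 bp downstream of their 5′ ends, and that of his-42 lay 48 bp from the 5′ end of the small nuclear RNA gene F08G2.10. The genes with at least 50% unique words and no pooled summit were his-39, his-70 and his-74. The limit of 50% was chosen after the values were seen, and the genes nearest to it were his-42 at 47.1% and his-64 at 53.7%. Whether reads that match several places were kept is not given in the sources used here, and the part of repeated sequence in the missing summits was not tested.

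**Figure D4:**
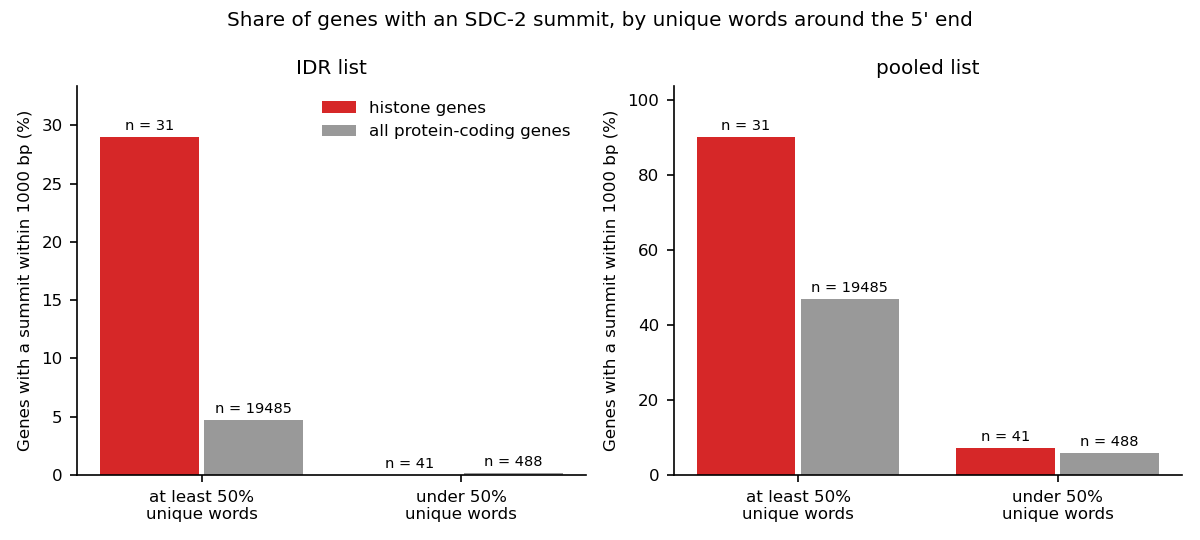
Percent of genes with a summit within 1000 bp in the IDR list (left) and the pooled list (right), for histone genes and all protein-coding genes, split by whether at least 50% of the 36-base words around the 5′ end are unique; n is the number of genes. Histone genes with unique windows had a summit in 29.0% and 90.3%, and those without in 0% and 7.32%.

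The same split can be counted by pair. The spacers lie inside the windows of the same genes, and a copied spacer has no unique words, so these counts restate the split and do not test it. Of the 20 spacers with under 50% unique words none had a pooled summit, and of the 11 others 10 had one. Of the 31 spacers, 16 were identical to at least 1 other and none of these had a summit, while 10 of the 15 single-copy spacers had one. The most frequent spacer sequence occurred 4 times, at his-51/his-52, his-54/his-53, his-21/his-22 and his-20/his-19. Genes of each core histone were found on both sides: with at least 50% unique words, all 5 H2A, 4 H2B, 6 H3 and 8 H4 genes had a pooled summit, and 2, 1, 2 and 3 of them an IDR summit.

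The longest stretch without a summit at histone genes was on chromosome V. The clusters his-50 to his-53 (6 genes) and his-28 to his-18 (8 genes) lie in 1 interval of 105535 bp, V:8802589-8908124, with no pooled summit inside. Of the 4265 intervals between pooled summits on chromosome V, 2 were at least as long, this one included, and the median was 2371 bp. A block of 15287 bp, V:8840017-8855303, is repeated without a mismatch at V:8882112-8897398, and 18.0% of the 36-base words of the interval are unique. None of the 14 histone genes in the interval had a summit in any list, except his-18 with a weak one of 13.9 in replicate 1.

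On chromosome II the cluster his-16 to his-42, with 13 genes over 10938 bp, had no pooled summit inside either. Its interval of 12215 bp between summits was less unusual, since 215 of 4404 intervals on chromosome II were at least as long, and 15.01% of its words are unique. On chromosome IV the cluster of 8 genes from his-47 to his-57 held 6 pooled summits within its 17648 bp, but only that of his-45 lay within 1000 bp of a histone gene. Its neighbours his-66 and his-65 had none, and his-63 (H3) and his-64 (H4), which complete that cluster of 4, shared a spacer summit of 46.5 in the pooled list, 26.8 in replicate 1 and 20.3 in replicate 2. In the cluster his-8 to his-39 on chromosome V, at 63.6 to 86.8% unique words, 4 of 5 genes had a pooled summit, with signals of 25.5 and 28.4, and none was held by both replicates. The summits at this cluster were among the weakest near histone genes.

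Over all lists, 36 of the 72 genes had a summit in none, and all 36 had under 50% unique words. Another 5 genes had one in a replicate list but not in the pooled list: his-18, his-33, his-39, his-70 and his-74. The share of all protein-coding genes with a summit in no list was not counted. In the pooled list alone, 43.1% of histone genes and 46.1% of all genes had a summit, so a missing pooled summit is common among genes at large. Among genes under 50% unique words, the shares with a pooled summit were 7.32% and 5.94%. Among genes with at least 50%, they were 90.3% and 47.1%. His-73, a partial gene, had a pooled summit of 28.5, 741 bp past its 5′ end and 17 bp from that of W09H1.3. The limit of 1000 bp left his-45 just inside at 956 bp and his-33 just outside at 1035 bp.

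Short sequence motifs were sought on both strands within 100 bp of each summit. AGACGCAG was found at 1 of the 6 histone IDR summits, that of his-67/his-68, and at 164 of all 1343 IDR summits (12.2%). GAGAGAGA was found at 1 of 6 and at 11.99% of all, CGCAGGGA at 0 of 6 and at 1.49% of all, and TATAAA, the core of the TATA box, at 2 of 6 and at 8.94% of all. TATAAA was found in 47 of the 72 histone promoter windows (65.3%) and 37.9% of all promoter windows. AGACGCAG and CGCAGGGA share the letters CGCAG and can overlap in a site. The median GC content within 100 bp was 49% at the histone IDR summits and 49.3% at all IDR summits, while histone promoter windows had 48% and all promoter windows 34.3%.

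Other genes of histone biology were counted from a list of 26, all found in the annotation: 11 linker histones and variants without a his- name, 14 histone chaperones and cdl-1, which encodes the stem-loop binding protein that processes histone mRNA. Of the 26, 4 had an IDR summit, 18 a pooled summit and 10 a summit in both replicates, beside the 4.64%, 46.1% and 19.8% of all genes. The 4 were the linker histone genes hil-7, with a signal of 180.7 at 228 bp upstream, and hil-3 on X, with 91.4 at 11 bp inside, chaf-2, a subunit of chromatin assembly factor 1, with 148.5 at 179 bp upstream, and nasp-2, a relative of the H3 and H4 chaperone NASP, with 109.7 at 995 bp upstream. The strongest pooled summit at cdl-1 had a signal of 71.7, and the gene had no IDR summit. Of the 9 linker histone genes counted here, his-24 and the 8 hil genes, 3 thus had an IDR summit, beside 4.64% of all genes. His-24 and hil-3 are on X, where 11.2% of all genes had one, and hil-7 is on chromosome IV, beside 3.6% on autosomes. With 9 genes the count is too small to be read as a trait of linker histone genes.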

How the data were processed

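The data were ChIP-seq peak lists of 2 biological replicates. The authors, per their deposited notes, called 1 list per replicate and 1 on the pooled replicates, against 1 shared control alignment on ce11, and derived the IDR list from them. The aligner, the peak caller and the threshold of the IDR were not given in the sources used here. Each signal deposited for a peak is the authors' value, with no stated scale, and was used within its own list. The lists give no read counts, so no counting interval can be given.

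The 72 histone genes were matched by WormBase ID to RefSeq symbols, because the Ensembl release 115 annotation gives them only 50 distinct names, and 22 genes have another name there than in RefSeq. Summits within 1000 bp of any 5′ end were counted, each distinct summit once, with Python 3.11.15, numpy 2.4.6, pandas 2.3.3 and matplotlib 3.10.9. Words of 36 and 50 bases were counted over the genome on both strands. The counting was tested on simulated data. With 1 group there was no comparison between groups and no p-value. The genes named were those with an IDR summit, the 10 strongest pooled summits, the lone genes and variants, genes with no pooled summit, and pathway genes with an IDR summit. Others were named after their values were seen. The members, lists and motifs were chosen with earlier results of these data known. Alternatives were other distances, peak overlap, only the outermost 5′ end of each gene, the stronger part of each list, single replicates, and, added after seeing the data, genes with unique windows.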

Additional observations from a re-analysis of the deposited data

How the results depend on the processing

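Of 38 alternatives computed, 37 gave a count within 1.5 times the reported one. The exception was the number of distinct pooled summits near histone genes, which was 19 in place of 33 when the peak itself had to overlap a 5′ end; the definition is narrower by construction. Histone genes with an IDR summit numbered 7 to 11 and those with a pooled summit 22 to 38. Those with a summit in both replicates numbered 16 to 29. Some alternatives could hardly change the counts. The outermost 5′ end matters only for genes with several, and 70 of the 72 genes have 1. The limit to unique windows was added after the values were seen, and that class holds all 9 genes with an IDR summit and 28 of the 31 with a pooled one. With the strongest peaks of a single replicate in place of the IDR list, 9 and 10 genes had a summit, on 5 and 7 distinct summits. With a single replicate list in place of the pooled list, 30 and 31 genes had one, on 34 distinct summits each. No paired analysis was possible because there is 1 group and no test. Without read counts, untagged embryos or the control reads, a gene without a summit is one at which none was called in these lists.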
